A study of Mus musculus with 4 samples.

Results

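The insulin-like growth factor (IGF) genes described here were the ligands Igf1 and Igf2, the receptors Igf1r and Igf2r, and the binding protein genes Igfbp2, Igfbp3, Igfbp4, Igfbp5, Igfbp6 and Igfbp7. They were taken by gene symbol, and all 10 were present among the 32285 genes of the count tables. Cells came from lungs of mouse embryos at E16.5 (embryonic day), whose mothers had received tamoxifen by intraperitoneal injection at E12.5. Mutant and Cre control embryos came from matings of Myrf Fl/Fl; R26TdTomato/R26TdTomato with Wt1creERT2; Myrf Fl/Fl mice. Embryos of both groups were selected for TdTom fluorescence. Myrf, the floxed gene, encodes a membrane-bound transcription factor. Wt1creERT2 gives a tamoxifen-dependent Cre recombinase in cells that express Wt1, among them the mesothelium that covers the lung, and R26TdTomato keeps marking recombined cells and their descendants. The labels call the second group Cre controls and do not give its Myrf alleles apart from the mating. TdTom-positive, DAPI-negative cells of 3 to 5 pooled lungs per genotype were sorted and profiled in droplets, with reads taken from the 3′ end of transcripts. The series held 2 mutant libraries and 2 control libraries. Nothing in the labels tells whether the 2 libraries of one genotype hold different pools, so p-values measure only the spread between these libraries.

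IGF1 and IGF2 are secreted growth factors that signal through the tyrosine kinase receptor IGF1R and are strong drivers of fetal growth. IGF2R binds IGF2 without signalling like IGF1R does and carries it to lysosomes, where it is broken down. The IGF binding proteins hold the ligands in the extracellular space, which can extend their life, keep them from the receptor or release them there, and several also act on cells without a ligand. In the embryonic lung, mesenchyme is a known source of both ligands.

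The files gave 411 and 4275 cells for mutant libraries 1 and 2, against 281 and 3503 cells for control libraries 1 and 2, after filters. These held 20954282 and 80755665 unique molecular identifiers (UMIs, each marking 1 captured transcript) in mutants, against 8175944 and 58045818 UMIs in controls. Levels are given as UMIs of a gene per 1000000 UMIs of the cells named (CPM). Since the assay counts 3′ ends, a level is not scaled by transcript length. Clusters were named from marker lists, and the IGF genes were left out of the clustering. Mesothelial-like cells, in which 14 of 17 mesothelial markers were raised, made up 0.730% and 0.0702% of mutant libraries 1 and 2, against 42.0% and 22.2% of control libraries 1 and 2. Muscle-like cells, which were raised for 8 of 12 smooth muscle markers and for Des, Tnnt2, Actc1, Myl4, Myl7 and Ramp1, made up 64.7% and 36.1% of the mutant libraries, against 1.42% and 0.714% of the control libraries. Smooth muscle-like cells were 11.7% and 10.2% in mutants, against 8.19% and 5.97% in controls. Fibroblast-like cells were 15.6% and 50.3% in mutants, against 28.5% and 12.4% in controls. The label of mesothelial cells therefore held for part of the sort only, and 2013 of the 3503 cells of control library 2 formed a mixed, unnamed cluster that resembled the whole library, with 10 of 17 mesothelial markers raised. No more than 4 cell barcodes were shared between any 2 libraries. Myrf (chromosome 19, 10208272 to 10240748) stood at 19.1 and 7.22 CPM in all sorted cells of mutant libraries 1 and 2, against 76.0 and 48.5 CPM in control libraries 1 and 2. Which Myrf exons were floxed is not stated, so a 3′ level checks neither the deletion nor the labels.

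Each genotype lacked enough cells of the other's main class, so the muscle-like cells of mutants were set against the mesothelial-like cells of controls. In that comparison cell class and genotype cannot be told apart, and other genes of the same cells had drawn the classes. Of the 10 IGF genes, 6 were lower and 1 was higher in muscle-like mutant cells at an adjusted p under 0.05 (edgeR quasi-likelihood test on UMIs summed per library, Benjamini-Hochberg adjustment over 14458 genes). Among all genes tested, 12.7% passed, 7.42% as lower and 5.26% as higher. At an unadjusted p under 0.05, 26.1% of all genes were counted. The median log2 change of the 10 genes was -1.36, against 0.02 over all genes tested. All 5 calls outside Igfbp3 and Igfbp6 rested on both control libraries or on control library 2, as given with each gene below. A fit with 1 library left out keeps 1 library of that genotype, so its p-values hold no spread within that genotype.

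**Figure D1:**
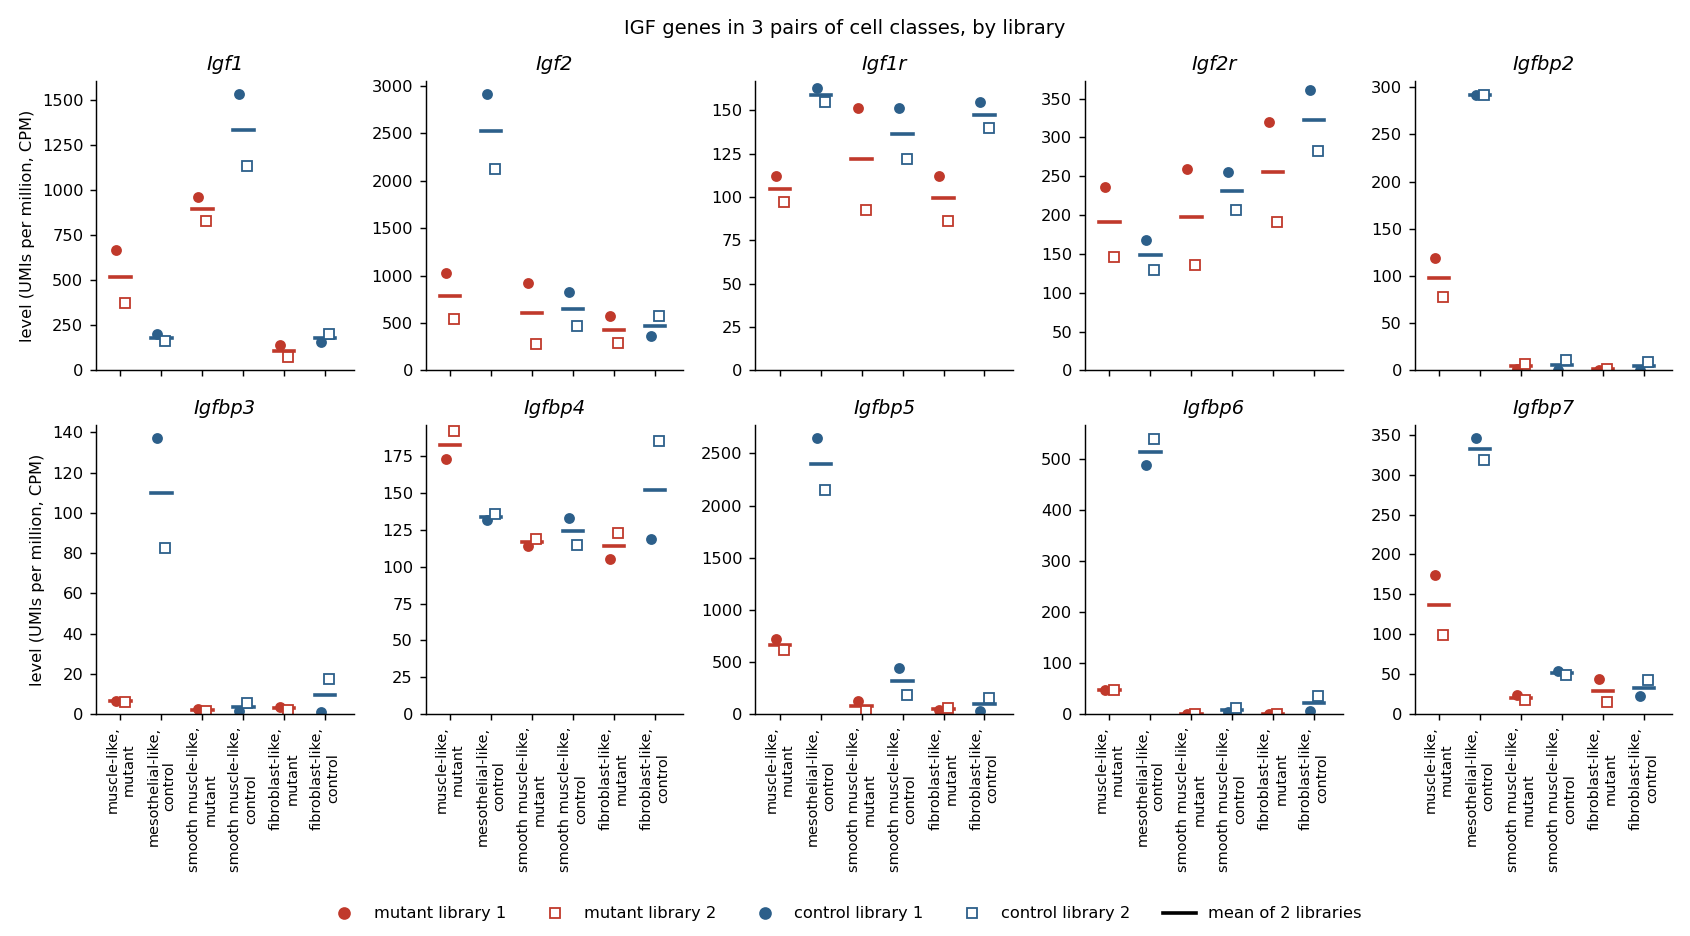
Level of each IGF gene (y axis, CPM, starting at 0) in muscle-like, smooth muscle-like and fibroblast-like mutant cells beside mesothelial-like, smooth muscle-like and fibroblast-like control cells, with 1 point per library and a bar at the mean of 2 libraries. Igfbp6 stood at 489 and 540.0 CPM in mesothelial-like control cells and at or below 48.0 CPM in every other group shown, and Igf1 was highest in smooth muscle-like cells of both genotypes.

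Among the ligands, Igf1 and Igf2 moved in opposite directions. Igf1 (ENSMUSG00000020053, chromosome 10, 87858265 to 87937042, mm10), the ligand best known as the mediator of growth hormone, had 668 and 372 CPM in muscle-like cells of mutant libraries 1 and 2, against 204 and 160.2 CPM in mesothelial-like cells of control libraries 1 and 2. Both mutant values lay above both control values. The fold was 2.98, or 1.58 ± 0.29 on the log2 scale (SE, edgeR adjusted p = 0.0179), and the call was lost without control library 2 (edgeR adjusted p = 0.192). Cells with at least 1 Igf1 UMI, after thinning each cell to 5000 UMIs, were 76.0% and 62.0% of muscle-like mutant cells, against 46.2% and 35.5% of mesothelial-like control cells. Without thinning these shares were 92.5% and 77.8% in mutants, against 71.2% and 58.3% in controls. Median depths were 42225 and 15352 UMIs in muscle-like mutant cells, against 34788 and 19651 UMIs in mesothelial-like control cells. Among cells with more endothelial than immune UMIs, which had little Igf1, 26.9% (7 of 26) of thinned cells held an Igf1 UMI in mutant library 2, against 0 of 9 and 18.2% (2 of 11) in controls, with median depths of 5711 UMIs in mutant library 2, against 10713 and 8265 UMIs in controls. The part of free RNA in the Igf1 shares was not tested.

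Igf2 (ENSMUSG00000048583, chromosome 7, 142650766 to 142666816), the imprinted fetal ligand, had 1030 and 541 CPM in muscle-like cells of mutant libraries 1 and 2, against 2919 and 2125 CPM in mesothelial-like cells of control libraries 1 and 2. The groups did not overlap, and Igf2 fell by 1.62 ± 0.35 on the log2 scale, which is 3.08-fold lower (edgeR adjusted p = 0.0304). That call was lost without control library 1 (edgeR adjusted p = 0.144) and without control library 2 (0.117). Igf2 UMIs were found in 95.3% and 87.7% of thinned muscle-like mutant cells, against 98.3% and 99.9% of thinned mesothelial-like control cells, and in 99.6% and 97.7% of the mutant cells, against 99.2% and all (777 of 777) of the control cells, before thinning. Among the same endothelial cells, 53.8% of thinned cells held an Igf2 UMI in mutant library 2, against 22.2% and 36.4% in controls, and the part of free RNA in the Igf2 shares was not tested either. Thinned muscle-like and mesothelial-like cells had a mean of 5.34 and 2.97 Igf2 UMIs per cell in mutants, against 15.2 and 10.9 in controls. H19, a noncoding RNA that lies 72622 bases from Igf2 and is imprinted with it, had 3036 and 1351 CPM in muscle-like mutant cells, against 4893 and 3870 CPM in mesothelial-like control cells. Its groups did not overlap either, and its log2 change of -0.95 ± 0.40 did not pass (edgeR adjusted p = 0.196).

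The place where each ligand was most abundant differed. Igf1 was highest in smooth muscle-like cells in both genotypes, at 959 and 829 CPM in mutant libraries 1 and 2, against 1531 and 1134 CPM in control libraries 1 and 2. Smooth muscle-like cells had 6.96 and 11.1 times the Igf1 level of fibroblast-like cells in mutants, against 9.57 and 5.60 times in controls. In mutants the order was smooth muscle-like, muscle-like, then fibroblast-like cells, with 138 and 74.5 CPM in the last, and no neighbours overlapped. In controls, mesothelial-like and fibroblast-like cells overlapped behind smooth muscle-like cells. Igf2 was highest in mesothelial-like cells in controls, apart from every other class. In mutants its 3 mesenchymal classes overlapped: muscle-like cells at 1030 and 541 CPM, smooth muscle-like cells at 924 and 282 CPM, and fibroblast-like cells at 573 and 288 CPM. Igf2 in smooth muscle-like and fibroblast-like control cells was 822 and 471 CPM and 360.1 and 568 CPM.

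The cells that held most Igf1 UMIs were not the same in both genotypes. Muscle-like cells held 82.2% and 55.2% of the Igf1 UMIs of mutant libraries 1 and 2, whereas in control libraries 1 and 2 mesothelial-like cells held 36.3% and 17.9% and smooth muscle-like cells 43.4% and 38.1%. More than any other class, muscle-like cells held Igf2 in mutants and mesothelial-like cells in controls: 77.2% and 54.4% in muscle-like cells of mutants, against 83.2% and 55.6% in mesothelial-like cells of controls. In control library 2, mixed barcodes held a further 28.6% of Igf1 and 29.7% of Igf2 UMIs. Over all genes, muscle-like cells held 14252068 of 20954282 and 30910097 of 80755665 UMIs in mutant libraries 1 and 2. Mesothelial-like cells held 4189416 of 8175944 and 16194740 of 58045818 UMIs in control libraries 1 and 2. These shares therefore hold the size of a class as well as its level of a gene.

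**Figure D2:**
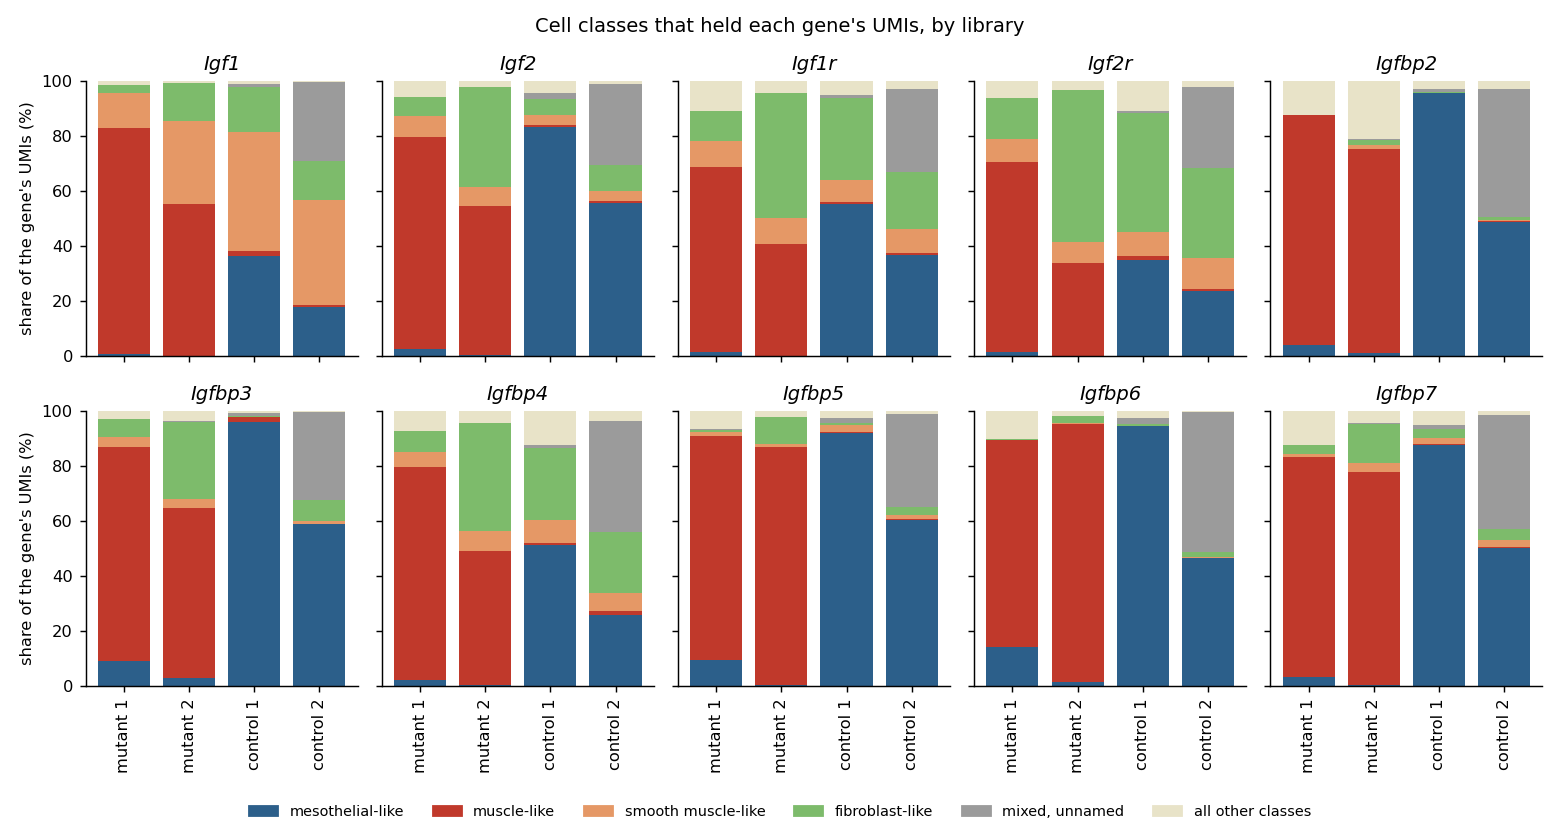
Share of each IGF gene's UMIs (y axis, %) held by each cell class in each library, as stacked bars that sum to 100%. The shares hold the size of a class as well as its level of a gene. Muscle-like cells (red) held most UMIs of Igf1, Igf2, Igfbp2, Igfbp3, Igfbp5, Igfbp6 and Igfbp7 in both mutant libraries, and mesothelial-like cells (blue) with mixed barcodes (grey) held most UMIs of the same binding proteins in controls.

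Neither receptor was called in any comparison of all 4 libraries without a replicate block. Igf1r (ENSMUSG00000005533, chromosome 7, 67952827 to 68233668), the signalling receptor for both ligands, had 112 and 96.9 CPM in muscle-like cells of mutant libraries 1 and 2, against 163 and 155 CPM in mesothelial-like cells of control libraries 1 and 2. The groups did not overlap, and the log2 change was -0.52 ± 0.19 (edgeR adjusted p = 0.141). For Igf1r, neighbours in the order of classes overlapped throughout: in controls from mesothelial-like cells, at a mean of 159 ± 6.16 CPM, down to epithelial-like cells, at 87.1 ± 22.5 CPM (SD, 2 libraries each). The same held in mutants, from smooth muscle-like cells at 121 ± 41.2 CPM to epithelial-like cells at 94.1 ± 10.5 CPM.

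Igf2r (ENSMUSG00000023830, chromosome 17, 12682406 to 12769664), which clears IGF2, had 236 and 146 CPM in muscle-like mutant cells, against 168 and 129.7 CPM in mesothelial-like control cells. These groups overlapped, with a log2 change of 0.43 ± 0.25 (edgeR adjusted p = 0.341), and of 0.65 without mutant library 2. Its levels followed another order of classes than those of Igf2. In controls Igf2r was highest in pericyte-like cells, at 849 and 524 CPM, then in fibroblast-like cells, at 361 and 283 CPM, then in smooth muscle-like cells, at 255 and 207 CPM, and none of these overlapped with the next. Pericyte-like cells, which wrap capillaries, numbered 11 and 10 in control libraries 1 and 2, and 26 in mutant library 2, where Igf2r stood at 505 CPM. In mutants, fibroblast-like cells, at 319.6 and 191 CPM, overlapped with smooth muscle-like cells, at 259.6 and 136 CPM. Within fibroblast-like cells, the finer cluster led by Slc38a5, Slc27a6 and Tcf21 had 609 and 261 CPM of Igf2r in mutants, against 485 and 382 CPM in controls. The finer cluster led by Ntng1, Epha5 and Lef1 had 207 and 147 CPM of Igf2r in mutants, against 265 and 186 CPM in controls. The Tcf21 cluster was thus higher in all 4 libraries, by 2.95- and 1.77-fold in mutants and by 1.83- and 2.06-fold in controls.

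The binding proteins held the largest changes. Summed over the 6 genes, their transcripts came to 1239 and 1037 CPM in muscle-like cells of mutant libraries 1 and 2, against 4041 and 3522 CPM in mesothelial-like cells of control libraries 1 and 2. The 2 ligands together came to 1697 and 913 CPM in those mutant cells, against 3122 and 2286 CPM in those control cells. Igfbp5 made up the largest share of the binding protein UMIs of both classes, 57.9% and 59.4% in mutants against 65.5% and 61.1% in controls. Binding protein sums were lower in smooth muscle-like and fibroblast-like cells. Smooth muscle-like cells had 271 and 176 CPM in mutants, against 639 and 375 CPM in controls. Fibroblast-like cells, in which Igfbp4 was the most abundant, had 198 and 198 CPM in mutants, against 183 and 440.1 CPM in controls.

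**Figure D3:**
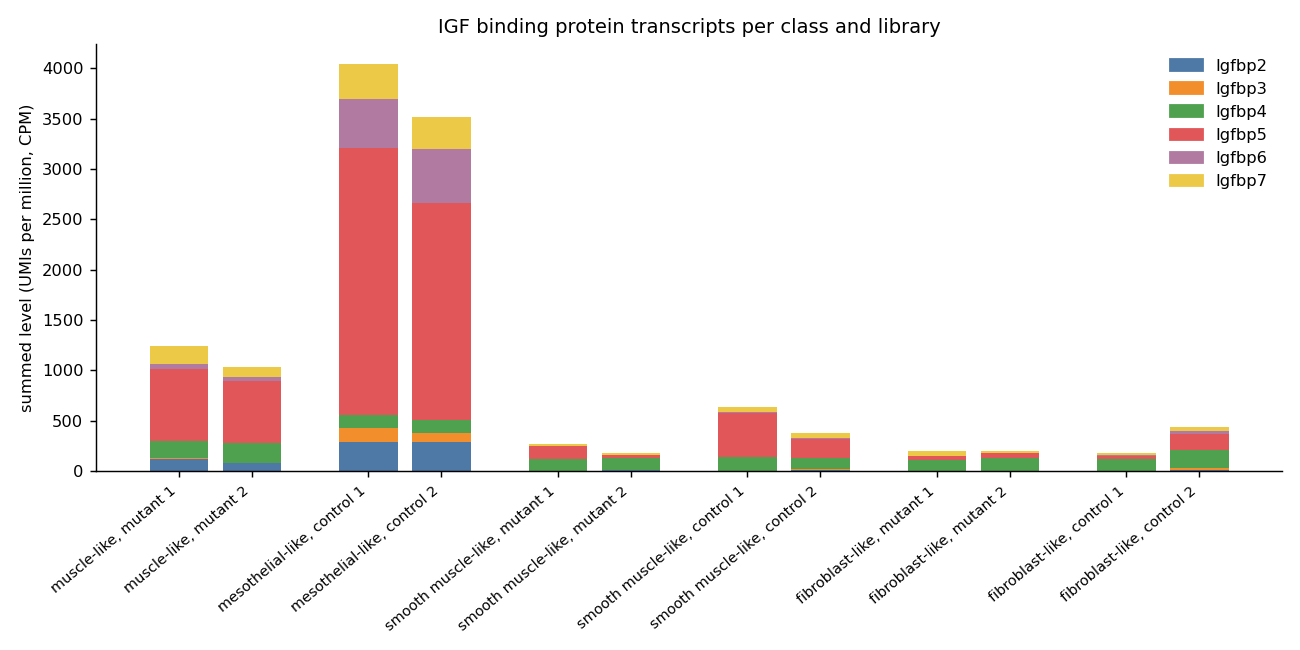
Summed level of the 6 IGF binding protein transcripts (y axis, CPM) in each class and library, as stacked bars. The bars of mesothelial-like control cells reach 4041 and 3522 CPM, those of muscle-like mutant cells 1239 and 1037 CPM, and the Igfbp5 segment is the tallest in each of these 4.

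The promoters of the 3 binding protein genes with the largest falls are shown because these genes fell together. Each runs from 250 bases before to 50 bases after a transcription start, 5′ to 3′ on the gene's strand, from RefSeq on GRCm38.p6, the assembly called mm10. Capitals mark CATTCC, the reverse complement of GGAATG, the core letters bound by TEAD factors.
Igfbp3, chr11:7213874-7214173, minus strand: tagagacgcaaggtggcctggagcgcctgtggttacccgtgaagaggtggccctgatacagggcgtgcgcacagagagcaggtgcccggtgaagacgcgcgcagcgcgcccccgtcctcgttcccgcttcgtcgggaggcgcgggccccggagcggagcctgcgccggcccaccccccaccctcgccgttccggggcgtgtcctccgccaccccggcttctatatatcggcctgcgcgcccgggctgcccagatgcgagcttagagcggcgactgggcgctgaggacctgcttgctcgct
Igfbp5, chr1:72874816-72875115, minus strand: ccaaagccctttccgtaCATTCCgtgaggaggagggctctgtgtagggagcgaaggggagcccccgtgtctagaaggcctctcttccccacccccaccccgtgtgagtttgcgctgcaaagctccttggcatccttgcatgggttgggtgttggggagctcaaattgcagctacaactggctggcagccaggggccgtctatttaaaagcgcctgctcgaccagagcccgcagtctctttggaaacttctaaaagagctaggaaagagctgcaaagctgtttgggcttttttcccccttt
Igfbp6, chr15:102143936-102144235, plus strand: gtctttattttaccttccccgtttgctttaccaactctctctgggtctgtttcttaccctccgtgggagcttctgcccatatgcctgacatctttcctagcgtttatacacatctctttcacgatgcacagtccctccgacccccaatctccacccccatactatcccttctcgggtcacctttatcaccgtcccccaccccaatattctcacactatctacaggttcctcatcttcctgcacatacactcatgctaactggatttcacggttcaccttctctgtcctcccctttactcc
Igfbp5 held a single TEAD match, 233 bases before the start, and Igfbp3 and Igfbp6 held none on either strand. Igf2, which was also called lower and has several starts, held TEAD matches in windows not shown. The first match of each lay at -218, -180 and -163 bases from its start, and a further Igf2 window held none. Of 32851 promoters of this length, 14.7% held GGAATG or its complement. None of the promoters of the 10 genes held CTGGCAC or CTGGTAC, letters reported for MYRF binding, on either strand, against 7.10% of all promoters. The Igfbp3 window was 71.7% G and C with 37 CpG pairs and the Igfbp6 window 49.7% with 8, against medians of 52.7% and 7 over all promoters. These matches describe letters in these windows only.

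Igfbp3 and Igfbp6 fell most in the comparison of muscle-like with mesothelial-like cells. Igfbp3 (ENSMUSG00000020427, chromosome 11, 7206086 to 7213923), the main carrier of IGFs in blood, had 6.67 and 5.86 CPM in muscle-like cells of mutant libraries 1 and 2, against 137 and 82.5 CPM in mesothelial-like cells of control libraries 1 and 2. It fell by 4.03 ± 0.30 on the log2 scale, 16.4-fold (edgeR adjusted p = 0.00101). After thinning, 1.18% and 2.20% of muscle-like mutant cells held an Igfbp3 UMI, against 26.5% and 20.2% of mesothelial-like control cells, and without thinning 12.4% and 5.77%, against 54.2% and 39.8%. Even in controls, Igfbp3 was thus found in a minority of the mesothelial-like cells at equal depth.

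Igfbp6 (ENSMUSG00000023046, chromosome 15, 102144362 to 102149511), which prefers IGF2 over IGF1 as its ligand, had 48.0 and 46.7 CPM in muscle-like cells of mutant libraries 1 and 2, against 489 and 540.0 CPM in mesothelial-like cells of control libraries 1 and 2. It fell by 3.35 ± 0.24 on the log2 scale, 10.2-fold (edgeR adjusted p = 0.000993). The share of cells with an Igfbp6 UMI was 10.2% and 10.9% of thinned muscle-like mutant cells, against 72.6% and 78.1% of thinned mesothelial-like control cells, and 36.5% and 22.8%, against 92.4% and 90.9%, before thinning. In the fibroblast-like cells of the same mutant libraries the thinned share was 0% (0 of 59 cells, with an exact upper 95% bound of 6.06%) and 0.286%. Median depths were 42225 and 15352 UMIs in muscle-like and 32492 and 16471 UMIs in fibroblast-like mutant cells. The exact lower 95% bounds were 6.80% and 9.39% in muscle-like cells, and the upper bounds 6.06% and 0.621% in fibroblast-like cells. These bounds count cells, which are not replicates, and cover counting error only, so they do not test the classes against each other. In control library 2 a few muscle-like cells, 25 in number, had 54.6 CPM of Igfbp6, and 2.27 CPM of Igfbp3 from 1 UMI. The 4 muscle-like cells of control library 1 had 10.5 CPM of Igfbp6 from 1 UMI and 94.8 CPM of Igfbp3 from 9 UMIs, so controls gave no settled level for this class.

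Igfbp2, Igfbp5 and Igfbp7 fell by smaller factors. Igfbp5 (ENSMUSG00000026185, chromosome 1, 72857932 to 72874884), a binding protein that also attaches to extracellular matrix, had 718 and 616 CPM in muscle-like cells of mutant libraries 1 and 2, against 2645 and 2153 CPM in mesothelial-like cells of control libraries 1 and 2. It fell by 1.76 ± 0.27 on the log2 scale, 3.39-fold (edgeR adjusted p = 0.00983), a call lost without control library 1 (0.0592) or control library 2 (0.0816). Igfbp2 (ENSMUSG00000039323, chromosome 1, 72824503 to 72852474), which binds both ligands and is abundant in fetal tissue, lies tail to tail with Igfbp5, 5457 bases apart. It had 119 and 77.8 CPM in those mutant cells, against 292 and 292 CPM in those control cells. Igfbp2 fell by 1.50 ± 0.23 on the log2 scale, 2.83-fold (edgeR adjusted p = 0.00951), a call lost without control library 2 (0.0774). Outside these classes Igfbp2 was found in epithelial-like cells, at 120.0 and 299 CPM in mutants against 91.9 and 215 CPM in controls, while fibroblast-like and smooth muscle-like cells had at most 11.1 CPM in any library.

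Igfbp7 (ENSMUSG00000036256, chromosome 5, 77349240 to 77408041), a matrix protein with low affinity for IGFs, had 174 and 98.5 CPM in muscle-like cells of mutant libraries 1 and 2, against 346 and 318 CPM in mesothelial-like cells of control libraries 1 and 2. It fell by 1.22 ± 0.27 on the log2 scale, 2.34-fold (edgeR adjusted p = 0.0302), and lost the call without control library 1 (0.108) or control library 2 (0.166). Igfbp4 (ENSMUSG00000017493, chromosome 11, 99041244 to 99054392), an inhibitory carrier that the protease PAPP-A cuts, stood apart from the other binding proteins. It had 173 and 192 CPM in muscle-like mutant cells, against 132 and 136 CPM in mesothelial-like control cells. Its groups did not overlap, and its log2 change of 0.54 ± 0.22 did not pass (edgeR adjusted p = 0.181). Without mutant library 1 the log2 change of Igfbp4 was 0.72. In this comparison 7 of the 10 genes were lower and 2 higher with no overlap, against 30.9% and 22.6% of all genes tested.

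**Figure D4:**
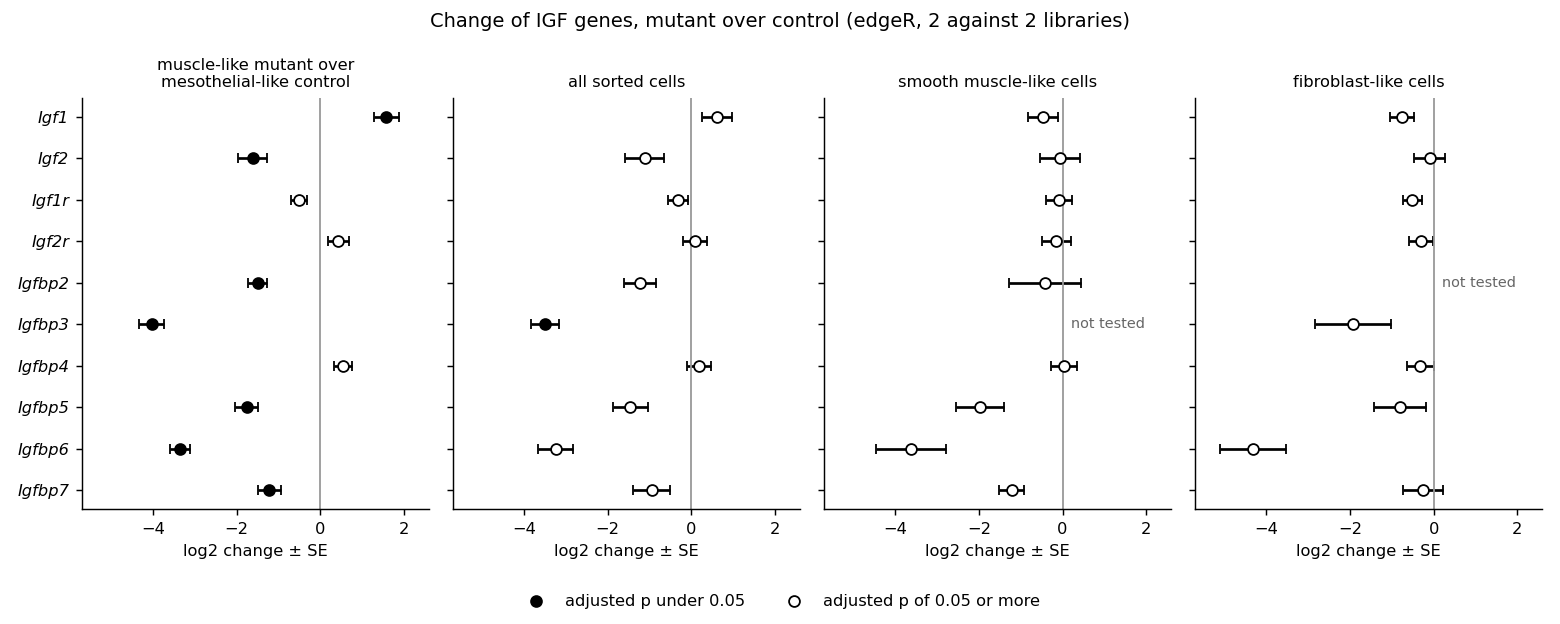
Log2 change of each IGF gene, mutant over control (x axis, with bars of 1 SE), in 4 comparisons of 2 against 2 libraries, with filled points where the edgeR adjusted p was under 0.05. The 7 filled points of the first panel and the filled point of Igfbp3 in all sorted cells, at -3.50, are the calls, and the low points of Igfbp6 in smooth muscle-like and fibroblast-like cells, at -3.62 and -4.32, are open.

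The sum over all sorted cells holds the change in the mix of cell classes as well as changes within them, which cannot be told apart in such a sum. There only Igfbp3 passed, 1 of 10 genes, against 0.357% of 16246 genes tested (0.339% as lower and 0.0185% as higher). Igfbp3 had 5.82 and 3.63 CPM in mutant libraries 1 and 2, against 72.9 and 39.3 CPM in control libraries 1 and 2, and fell by 3.50 ± 0.34 on the log2 scale, 11.3-fold (edgeR adjusted p = 0.0255). Of cells with Xist or Y-linked UMIs but not both, 64.7% and 82.8% in mutants had Xist, against 23.9% and 74.5% in controls. Among cells with Xist and no Y-linked UMI alone, the Igfbp3 change was -4.23 and missed the threshold (edgeR adjusted p = 0.133). Igfbp6 was counted with 910 and 1537 UMIs in mutants, against 2175 and 18853 UMIs in controls, although the mutant libraries held more UMIs in all. Its log2 change was -3.24 ± 0.42 with an edgeR adjusted p of 0.0557, and lay between -3.75 and -2.87 over 13 alternative settings. Mutant and control libraries also stood apart for Igf2, at 907 and 380.5 CPM against 1797 and 1067 CPM, and for Igfbp5, at 601 and 272 CPM against 1474 and 996 CPM. Their log2 changes were -1.12 ± 0.47 for Igf2 and -1.46 ± 0.42 for Igfbp5 (edgeR adjusted p = 0.587 and 0.330).

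None of the 6 other genes passed in all sorted cells of the 4 libraries. Igfbp2 had 96.8 and 40.2 CPM in mutants, against 156 and 167 CPM in controls, with a log2 change of -1.23 ± 0.38 (edgeR adjusted p = 0.356). Igfbp7 had 148 and 48.8 CPM in mutants, against 203 and 178 CPM in controls, with a log2 change of -0.95 ± 0.44 (edgeR adjusted p = 0.680). Without mutant library 1 the log2 changes were -1.79 for Igfbp2 and -1.74 for Igfbp7. Igf1 overlapped, at 553 and 258 CPM in mutants against 288 and 249 CPM in controls, although it was higher in muscle-like than in mesothelial-like cells. Igf1r, Igf2r and Igfbp4 had log2 changes of -0.32, 0.08 and 0.18. In all, 7 of 10 genes were lower and 1 higher in mutants with no overlap, against 17.8% and 12.6% of all genes tested, and the median log2 change was -1.03, against 0.03 over all genes tested. At an unadjusted p under 0.05 there were 4 of the 10 genes, against 8.74% of all genes.

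Within smooth muscle-like cells no IGF gene passed, and none of 11220 genes did (0% by edgeR, with 288, or 2.57%, at an unadjusted p under 0.05 and 2 called by DESeq2). The lowest p-values among the IGF genes belonged to binding proteins. Igfbp5 had 129.8 and 29.8 CPM in mutant libraries 1 and 2, against 445 and 183 CPM in control libraries 1 and 2, with a log2 change of -1.97 ± 0.58 (edgeR unadjusted p = 0.00699). Igfbp7 had 23.4 and 17.8 CPM in mutants, against 54.0 and 48.8 CPM in controls, with a log2 change of -1.22 ± 0.30 (edgeR unadjusted p = 0.00239). Igfbp6 was counted with 0 and 6 UMIs in mutants, against 3 and 55 UMIs in controls, which is 0 and 0.792 CPM against 4.50 and 11.3 CPM (edgeR unadjusted p = 0.00144). These 3 genes and Igf1, at 959 and 829 CPM against 1531 and 1134 CPM, were lower in mutants with no overlap, 4 of 9 genes tested, against 16.4% of all genes, and none was higher with no overlap, against 9.49%. The edgeR adjusted p was 0.999 for each of the 4. Without mutant library 1, the log2 changes were -3.05 for Igfbp5, -3.23 for Igfbp6 and -1.22 for Igfbp7. Igfbp5 had -2.45 without control library 2, and Igfbp6 had -3.97 without control library 1. Each of these fits keeps 1 library of a genotype, so only the size of the change is given.

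Fibroblast-like cells gave no call either, among 12239 genes (0% by edgeR, with 271, or 2.21%, at an unadjusted p under 0.05 and 4 called by DESeq2). Igfbp6 was counted with 2 and 38 UMIs in mutant libraries 1 and 2, against 16 and 355 UMIs in control libraries 1 and 2, or 0.875 and 0.985 CPM against 6.70 and 34.7 CPM. Its log2 change was -4.32 ± 0.79 (edgeR unadjusted p = 0.000905, adjusted p of 1), and DESeq2 called it (adjusted p = 3.34e-05). Left with 1 library of a genotype, it changed by -4.24 without mutant library 1 and by -4.96 without control library 1. Igf1 had 138 and 74.5 CPM in mutants, against 159.9 and 202 CPM in controls. Its log2 change was -0.75 ± 0.29 (edgeR unadjusted p = 0.0357), and -1.03 without mutant library 1. Igf1r had 112 and 86.3 CPM in mutants, against 155 and 139.8 CPM in controls, with a log2 change of -0.51 ± 0.23. Igfbp3 overlapped, at 3.50 and 2.13 CPM in mutants against 1.26 and 17.5 CPM in controls. It passed without a filter on low counts (-1.89, edgeR adjusted p = 0.0248), and its log2 change was -2.68 without control library 1. In the largest fibroblast-like cluster alone, a setting chosen after seeing the data, Igfbp6 had a log2 change of -3.92 (edgeR adjusted p = 0.950), Igf1 of -0.28 and Igfbp3 of -0.83. There Igf1 overlapped, at 139.7 and 69.6 CPM in mutants against 159.9 and 96.9 CPM in controls. In control library 2, a small cluster of 68 cells led by Dpt held 268 of the 355 Igfbp6 UMIs of the class. It also held 1244 of 2070 Igf1 UMIs and 154 of 179 Igfbp3 UMIs. Control library 1 had no cells of it, and the mutant libraries 1 and 14. Over the whole class, Igfbp6, Igf1 and Igf1r, 3 of 9 genes tested, were lower in mutants with no overlap, against 14.5% of all genes, and none was higher with no overlap, against 8.81%. Igfbp2 here, and Igfbp3 in smooth muscle-like cells, had too few UMIs to be tested. The other IGF genes tested here had log2 changes of -0.09 for Igf2, -0.30 for Igf2r, -0.32 for Igfbp4, -0.80 for Igfbp5 and -0.26 for Igfbp7. In smooth muscle-like cells the genes not given above had -0.06 for Igf2, -0.09 for Igf1r, -0.15 for Igf2r, -0.43 for Igfbp2 and 0.04 for Igfbp4.

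Mesothelial markers were also counted in fibroblast-like and smooth muscle-like cells at low levels. Their sums, which rest most on the abundant markers, overlapped between the genotypes. The summed level of the 17 mesothelial markers in fibroblast-like cells was 115 and 152 CPM in mutants (11 and 14 markers above 0), against 127 and 199 CPM in controls (14 and 17 above 0). In smooth muscle-like cells it was 186 and 138 CPM in mutants (12 and 9 above 0), against 162 and 212 CPM in controls (10 and 16 above 0). Mesothelial-like control cells had 5953 and 5363 CPM of the same markers, and muscle-like mutant cells 667 and 561 CPM. Mixed barcodes of control library 2 had 396 CPM of Igfbp6 and 811 CPM of Igfbp5. The part of free RNA in the Igfbp6, Igfbp5 and Igfbp7 values of smooth muscle-like and fibroblast-like cells was not tested. The mutant effect in smooth muscle-like cells minus that in fibroblast-like cells, tested with library as a block, passed for 3 of 12099 genes (0.0248%, with 0.0165% as lower and 0.00827% as higher) and for none of the 10 IGF genes. Without a filter on low counts, Igfbp5 passed that test (log2 difference of -1.54, edgeR adjusted p = 1.68e-07). At an unadjusted p under 0.05, 431 of all genes (3.56%) and 1 IGF gene, Igfbp2, were counted in that test.

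Both main classes could be split further, and the IGF genes differed between the finer clusters, which are given as description only. Among mesothelial-like control cells, a cluster led by Dhrs9, Col6a5 and Plxdc1 held 8 and 70 cells, against 104 and 652 cells in the cluster led by Slc26a7 and Muc16. Igfbp3 in the Dhrs9 Col6a5 cluster was 685 and 293 CPM in control libraries 1 and 2, against 97.3 and 59.0 CPM in the Slc26a7 Muc16 cluster. Igf1 was likewise 902 and 599.8 CPM, against 152 and 109 CPM, and Igfbp4 568 and 386 CPM, against 101 and 108 CPM. Igf2 went the other way, at 1387 and 1028 CPM against 2992 and 2247 CPM, and so did Igfbp7, at 269 and 154 CPM against 357 and 337 CPM. Igfbp2 and Igfbp6 differed by less, with ratios of 1.15 and 1.21 for Igfbp2 and 0.795 and 0.796 for Igfbp6. The values of control library 1 rest on 8 cells. After thinning, 42.9% of the Dhrs9 Col6a5 cells of control library 2 held an Igfbp3 UMI, against 18.4% of the Slc26a7 Muc16 cells, and 65.7% against 39.4% before thinning.

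Among muscle-like mutant cells, a cluster led by Actc1, Myl4 and Sh3bgr held 26 and 245 cells, against 236 and 1286 cells in the cluster led by Des and Thsd7b. Igfbp6 was 7.57 and 6.68 CPM in the Actc1 Myl4 cluster of mutant libraries 1 and 2, against 50.4 and 55.0 CPM in the Des Thsd7b cluster. Igfbp2 was 51.7 and 22.3 CPM, against 123 and 89.3 CPM, and Igfbp5 507 and 475 CPM, against 731 and 644 CPM. Igf2 was 1515 and 575 CPM, against 1001 and 533 CPM, and Igfbp7 189 and 166 CPM, against 174 and 84.8 CPM. Igfbp6 differed most of the 10 genes between the 2 muscle-like clusters, with ratios of 0.150 and 0.121 in mutant libraries 1 and 2, while Igf1 gave ratios of 0.991 and 0.499 that differed between the libraries.

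**Figure D5:**
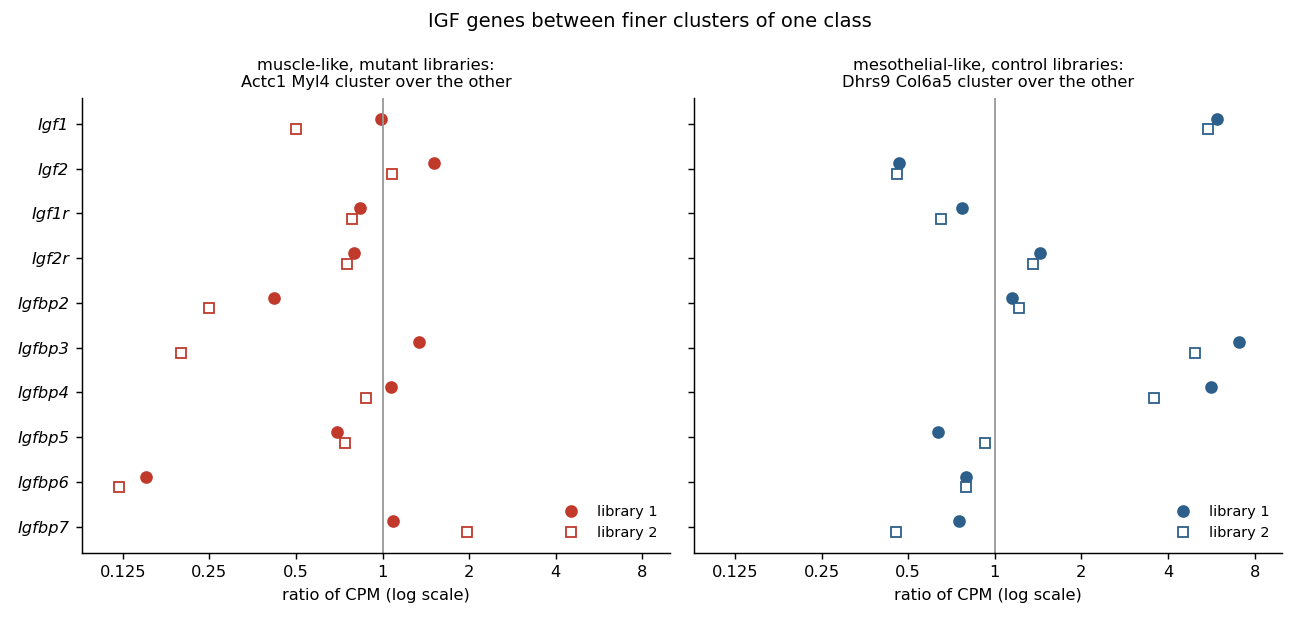
Ratio of CPM between 2 finer clusters of a class (x axis, log scale, 1 marked by a line) for each IGF gene and library: the Actc1 Myl4 over the Des Thsd7b cluster of muscle-like mutant cells, left, and the Dhrs9 Col6a5 over the Slc26a7 Muc16 cluster of mesothelial-like control cells, right. Igfbp6 lies at 0.150 and 0.121 on the left, and Igf1, Igfbp3 and Igfbp4 lie between 3.59 and 7.04 on the right.

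Of 52 other genes of the IGF system, 44 could be tested between muscle-like mutant and mesothelial-like control cells, and 3 fell and 0 rose, against 7.42% of all genes called lower and 5.26% called higher. The share that fell was near that of all genes. Plagl1, an imprinted zinc finger factor reported to activate Igf2 and H19 in mouse, had 306 and 284 CPM in muscle-like cells of mutant libraries 1 and 2, against 1741 and 1483 CPM in mesothelial-like cells of control libraries 1 and 2. Plagl1 fell by 2.36 ± 0.26 on the log2 scale (edgeR adjusted p = 0.00298). Prss23, a secreted serine protease gene, had 16.4 and 10.9 CPM, against 52.3 and 49.5 CPM, and fell by 1.83 ± 0.21 (edgeR adjusted p = 0.00345). Ccn1, which encodes a matrix protein with an IGF binding domain, had 225 and 208 CPM, against 636 and 416 CPM, and fell by 1.19 ± 0.27 (edgeR adjusted p = 0.0346). By role, 2 of 9 tested genes of ligand availability, 1 of 12 genes of Igf2 RNA and imprinted growth control, 0 of 1 insulin-type gene and 0 of 22 genes of receptor signalling fell. The median log2 change over the 44 genes was -0.07, against 0.02 over all genes tested. None of this list passed in all sorted cells (45 tested, 3 at an unadjusted edgeR p under 0.05, against 8.74% of all genes), in smooth muscle-like cells (42 tested, 2 at that p, against 2.57%) or in fibroblast-like cells (40 tested, 1 at that p, against 2.21%).

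Likeness of pattern was described over 24 sums of a class in a library, with 6779 genes compared. These sums share libraries and cell types, so the correlations carry no test. H19 was the gene most like Igf2 (Pearson r = 0.94), followed by Cbx6 and Lamb2 (0.92 each). Igf1 was most like Sulf2 (0.93), which encodes a heparan sulfate sulfatase, then Fto (0.91) and Tgfbi (0.90). Igfbp6 was most like Fgf9, a growth factor gene of lung mesothelium and epithelium (0.90), then Gpm6a and Fras1 (0.89 each). Igfbp5 was most like Lamb2 (0.93), Igfbp2 like Zdhhc2 (0.90) and Ezr (0.89), Igfbp7 like Cers4 (0.93), Igf2r like Pcdh18 (0.95), Igf1r like Ercc6l2 (0.86), Igfbp4 like Cmtm3 (0.85) and Igfbp3 like Ncoa4 (0.84). Among the 10 genes themselves, Igf2 and Igfbp5 (0.84), Igfbp5 and Igfbp6 (0.81) and Igfbp2 and Igfbp6 (0.71) had the highest correlations, and Igf2r and Igfbp2 the lowest (-0.57).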

How the data were processed

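The authors deposited one matrix per library with UMI counts (whole numbers, not normalized) for each gene in each barcode. Cell Ranger 6.0.2 made them, per the file headers, and the build was mm10, per the submitters' processing notes. Igf1os, Igf2os and Airn, antisense genes that overlap Igf1, Igf2 and Igf2r, had counts of their own. The use of strand was not given in the sources used here. Whether reads of these antisense genes entered the levels of Igf1, Igf2 and Igf2r was not tested. Locations are from GENCODE (1-based).

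Barcodes with at least 1000 genes and at most 15% mitochondrial UMIs were kept. Scrublet (scanpy 1.11.5) marked 2 and 0 doublets in mutant libraries 1 and 2, against 5 and 2 in control libraries 1 and 2, at its own threshold. Instead, the highest scores were removed at 0.8% per 1000 barcodes. That took 1 and 157 barcodes in mutants, against 1 and 104 in controls. Cells were clustered (Leiden, resolution 0.4, and 0.8 for finer clusters) without the IGF genes and named where at least 3 markers of a list were raised. Rules for muscle-like clusters (at least 4 markers of the Des Tnnt2 list), for mixed barcodes and for splitting endothelial from immune cells were added after seeing the clusters. Cells are not replicates, so UMIs were summed per class and library, with at least 10 cells in each sum tested, and compared in edgeR 4.0.16 (filterByExpr, TMM, glmQLFTest, two-sided, R 4.3.3). Each SE of a log2 change was taken back from the edgeR test, as the absolute change over the square root of its F statistic. It is therefore not a separate measure of spread. Exact permutation over 2 against 2 libraries cannot give a p under 0.333. The main edgeR fit of each comparison of mutant with control cells was checked on simulated counts. The fit for the difference between classes and the alternative fits were not. Intervals on shares of cells are exact binomial intervals that cover counting error only. Libraries of 1 genotype differed by more than sampling noise (chi-square over degrees of freedom of 220 in mutants and 105 in controls).

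All 10 genes are named in each comparison of mutant with control cells, with any gene of the wider list past the threshold. For the difference between classes only Igfbp2 and Igfbp5 are named. H19 is given for muscle-like over mesothelial-like cells only. Myrf is given for all sorted cells only. The genes and lists were chosen with earlier results of these data known. Alternatives were DESeq2 1.42.0, RLE scaling, no filter on low counts, a replicate block, each library left out, other cell filters, other clusterings, doublets kept, mixed barcodes left out and cells with Xist only.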

Additional observations from a re-analysis of the deposited data

How the results depend on the processing

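With each library left out in turn, the genes called numbered between 74 and 1097 in all sorted cells (58 as reported), between 0 and 279 in fibroblast-like cells (0 as reported), between 11 and 376 in smooth muscle-like cells (0 as reported), and between 919 and 4418 for muscle-like mutant over mesothelial-like control cells (1834 as reported). Without a filter on low counts, the counts were 685, 124, 21 and 3082 in the same order, and 122 for the difference between classes, against 3 as reported. DESeq2 called 499 genes in all sorted cells, 4 in fibroblast-like and 2 in smooth muscle-like cells. With mixed barcodes left out, 37 passed in all sorted cells. The labels do not say that replicate numbers pair the libraries, and deviations of same-numbered libraries correlated at 0.36, 0.29, 0.34 and 0.42 over genes. With the replicate number as a block, 525, 25, 222 and 4709 genes passed. Among the IGF genes, the block brought Igf2, Igfbp5 and Igfbp6 past the threshold in all sorted cells, Igfbp6 in fibroblast-like cells, Igfbp5, Igfbp6 and Igfbp7 in smooth muscle-like cells, and Igf1r and Igfbp4 in muscle-like over mesothelial-like cells.

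Directions turned only for changes that had not passed. Leaving out 1 library gave -0.13 to 0.33 for Igf2r in all sorted cells. In fibroblast-like cells it gave -0.44 to 0.29 for Igf2, -0.64 to 0.05 for Igfbp4, -1.49 to 0.76 for Igfbp5 and -0.96 to 0.32 for Igfbp7. In smooth muscle-like cells it gave -0.88 to 0.48 for Igf2, -0.26 to 0.10 for Igf1r, -0.45 to 0.13 for Igf2r, -2.60 to 7.02 for Igfbp2, which had 0 UMIs in control library 1, and -0.17 to 0.24 for Igfbp4. Among cells with Xist and no Y-linked UMI, the log2 change was -0.02 for Igf2r and -0.10 for Igfbp4 in all sorted cells and 0.61 for Igf2 in fibroblast-like cells. In fibroblast-like cells of the largest cluster alone, chosen after seeing the data, it was 0.22 for Igf2 and 0.44 for Igfbp7. In smooth muscle-like cells, resolution 0.8 gave 0.15 for Igf2 and -0.05 for Igfbp4, and keeping the IGF genes in the clustering gave -0.04 for Igfbp4. Direction and side of the threshold were kept by 110 of 130 recomputed changes in all sorted cells, 98 of 115 in fibroblast-like, 76 of 98 in smooth muscle-like and 98 of 110 in muscle-like over mesothelial-like cells, and by 19 of 20 for the difference between classes. Thinning moved 110 of 130 shares of cells beyond their exact interval. The causes of these changes were not tested.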

Other observations

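A small fibroblast-like cluster led by Dpt, Ntrk2, Agtr2 and Gdf10 stood apart from the other fibroblast-like cells in the IGF genes. It held 1 and 14 cells in mutant libraries 1 and 2 and, in controls, 68 cells, all of control library 2, so its values below are from the second library of each genotype and carry no test. Igf1 stood at 982 CPM in these cells of mutant library 2 and at 732 CPM in control library 2, against 69.6 and 96.9 CPM in the main fibroblast-like cluster of the same libraries. Igf2, the fetal ligand, stood at 1978 CPM in mutant library 2 and at 1532 CPM in control library 2, against 279 and 376 CPM in the main cluster. Igfbp5 stood at 2177 and 606 CPM in these cells, against 44.7 and 61.7 CPM in the main cluster, and Igfbp3 at 306 and 90.6 CPM, against 0.495 and 2.93 CPM. Igfbp4 stood at 773 and 461 CPM, against 119.9 and 129.7 CPM, and Igfbp6 at 102 and 158 CPM, against 0.443 and 10.2 CPM. The ligands and these binding proteins were thus all higher in the small cluster in both libraries.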
